A study of Mus musculus with 6 samples.

Results

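The interleukin ligands are the secreted proteins through which leukocytes and tissue cells signal to one another by way of interleukin receptors. Here they are the 29 genes of the immune panel, of 750 endogenous genes in all, whose symbol starts with Il and a number and holds no r after it, plus Il1rn, the IL-1 receptor antagonist. Il6st, a receptor chain, was left out. RNA of mouse liver tumors was read with a NanoString nCounter panel, which counts barcoded probes bound to single RNA molecules, with 1 probe per gene. The tumors grew from BNL-MEA, a BALB/c mouse liver cancer line, after injection beneath the liver capsule of male mice of that strain, 6 to 7 weeks old. In 3 samples (labelled PD-L1) the injected cells carried a PD-L1 plasmid, PD-L1 being a ligand of the inhibitory receptor PD-1, and in the other 3 (labelled empty plasmid) they carried an empty one. Both kinds of cells were stable clones selected with G418, and the number of clones is not given, so clone and plasmid cannot be told apart. The labels describe the clones of both groups as expressing PD-L1, and Cd274, its mouse gene, stood at 6.17, 5.36 and 5.87 on the log2 scale in the samples labelled PD-L1 and at 6.95, 5.32 and 7.43 in the others. The groups therefore rest on the sample titles. Whether samples of one group are separate mice is not stated, so the p-values measure only the spread between these samples.

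Interleukins fall into families by the receptor chains they share. The IL-1 family (IL-1 alpha, IL-1 beta, IL-18) drives inflammation, and its members IL-1 beta and IL-18 are cut to their active form by caspase-1, while the receptor antagonist occupies the IL-1 receptor without signalling. IL-2, IL-4, IL-7, IL-9, IL-15 and IL-21 use the common gamma chain and govern lymphocyte growth and survival. IL-6, IL-11, IL-12, IL-23 and IL-27 form another family, the IL-10 and IL-17 families act largely on epithelium and on other leukocytes, and IL-34 is a second ligand of the macrophage receptor CSF1R. Many of these transcripts come from small numbers of activated T cells and are scarce in whole tissue, whereas Il18 and Il34 are also made by tissue cells.

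The results begin with the IL-1 agonist genes Il1a and Il1b, so the 250 bases before the RefSeq start of each are shown (GRCm38.p6, both on the minus strand of chromosome 2, 5′ to 3′ in the direction of the gene). Il1a lies at chr2:129309973-129310222 and Il1b at chr2:129371140-129371389. Capitals mark matches of 4 motifs: TATAAA on the sense strand, and on both strands TGANTCA (AP-1), GAGGAA (PU.1 core) and the NF-kappaB motif.
Il1a: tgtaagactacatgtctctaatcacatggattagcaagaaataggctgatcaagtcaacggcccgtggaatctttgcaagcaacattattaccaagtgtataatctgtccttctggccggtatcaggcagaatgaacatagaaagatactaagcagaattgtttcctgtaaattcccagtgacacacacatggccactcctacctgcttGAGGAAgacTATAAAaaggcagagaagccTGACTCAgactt
Il1b: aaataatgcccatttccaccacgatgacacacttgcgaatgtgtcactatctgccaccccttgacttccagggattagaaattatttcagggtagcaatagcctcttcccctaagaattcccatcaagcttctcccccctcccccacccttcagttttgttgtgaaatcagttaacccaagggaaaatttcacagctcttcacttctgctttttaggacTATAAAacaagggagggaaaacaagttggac
Both windows hold TATAAA, 32 bases before the start in Il1a and 31 in Il1b, where 7.6% of all 32851 such RefSeq windows hold it anywhere. The Il1a window also holds 1 AP-1 match and 1 PU.1 core match, motifs present in 6.7% and 23.3% of windows, and neither overlaps another match. No NF-kappaB match lies in either window, and 7.3% of all windows hold one. These matches describe the letters only.

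Of the 29 interleukin ligands, 7 stood above the background of the panel: Il1b, Il1rn, Il18, Il15, Il7, Il16 and Il34. Background was read from the 8 negative control probes, which have no target in mouse RNA, and the limit was their mean over all samples plus 2 SD (2.98 + 2 × 0.84), or 4.66 on the log2 scale. A gene was tested when its mean over the 6 samples reached this limit, as 541 of 750 genes did. Of the 7 ligands, 6 lay above the limit and above the highest negative probe of their own sample in all 6 samples. Il7 did so in 5 of 6. The highest negative probe of a sample ran from 3.36 to 4.68, so the count depends on the measure. Above that probe alone stood 16, 7 and 17 of the 29 ligands in replicates 1 to 3 labelled PD-L1. In those labelled empty plasmid it was 14, 9 and 11. The remaining 22 ligands had means under the limit. These are Il6, Il11, Il12a, Il12b, Il23a and Il27 of the IL-6 and IL-12 family, Il10, Il19, Il22 and Il24 of the IL-10 family, and Il17a, Il17b, Il17f and Il25 of the IL-17 family. The others are Il2, Il4, Il9 and Il21 of the common gamma chain family, Il3, Il5, Il13 and Il1a. Counts per sample over all genes ran from 1009717 to 1894819, and those of the 8 negative probes together from 72 to 109.

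**Figure D1:**
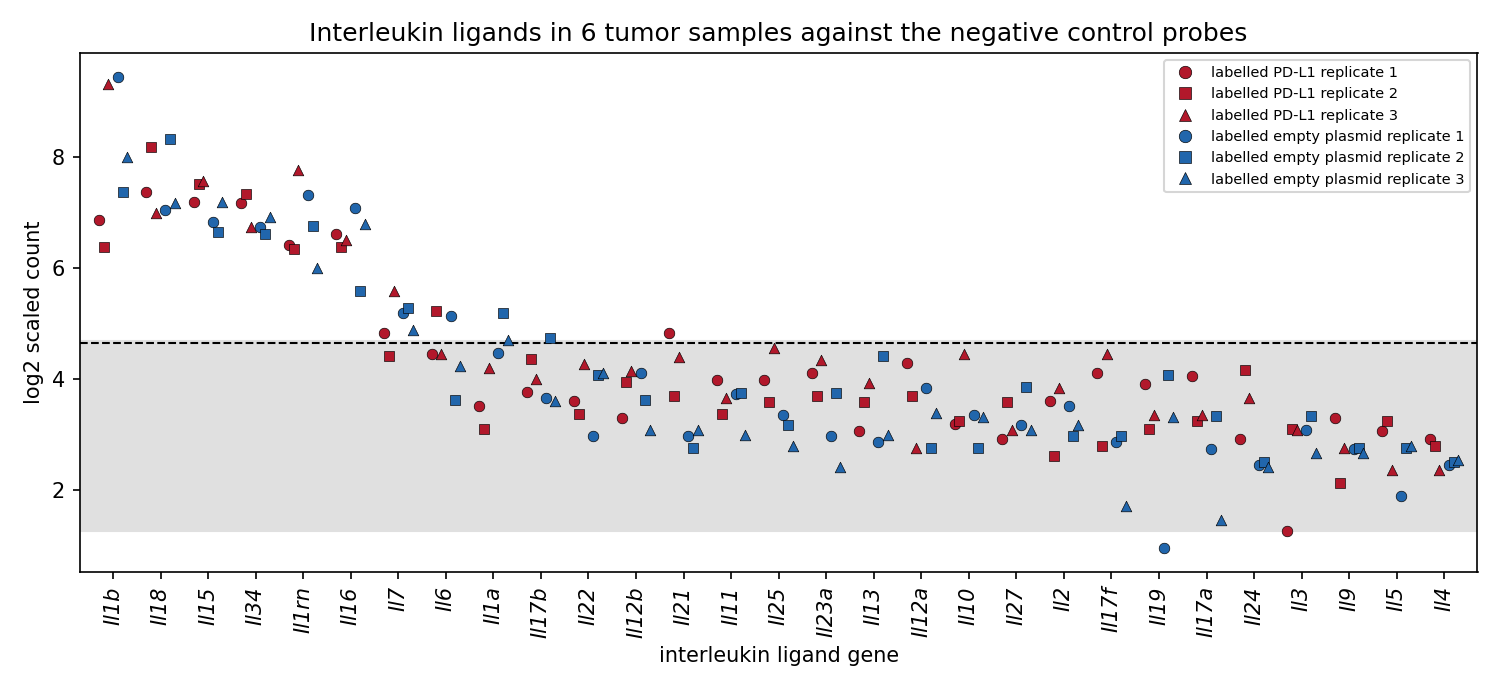
Log2 scaled counts (y axis) of the 29 interleukin ligands (x axis, ordered by mean) in 3 samples labelled PD-L1 (red) and 3 labelled empty plasmid (blue), with the symbol giving the replicate. The dashed line is the background limit of 4.66, and the grey band spans all values of the negative control probes: 7 genes have their mean above the line, and most values of the other 22 lie within the band.

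None of the 7 detected ligands changed between the groups in limma's test. Of the 7, 0 had an adjusted p under 0.05, and 0 had an unadjusted p under 0.05, also when voom was run on recovered counts. Over the whole set of 541 the adjusted p was under 0.05 for 0 genes (0.0%), and 92 genes had an unadjusted p under 0.05 (17.0%), or 90 by voom. The median log2 difference, labelled PD-L1 minus labelled empty plasmid, was 0.01 over the 7 ligands and -0.12 over all tested genes. Each of the 7 ligands had a 95% interval that reached past 1 on the log2 scale in at least 1 direction, so a difference of that size is not excluded for any of them in that direction.

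**Figure D2:**
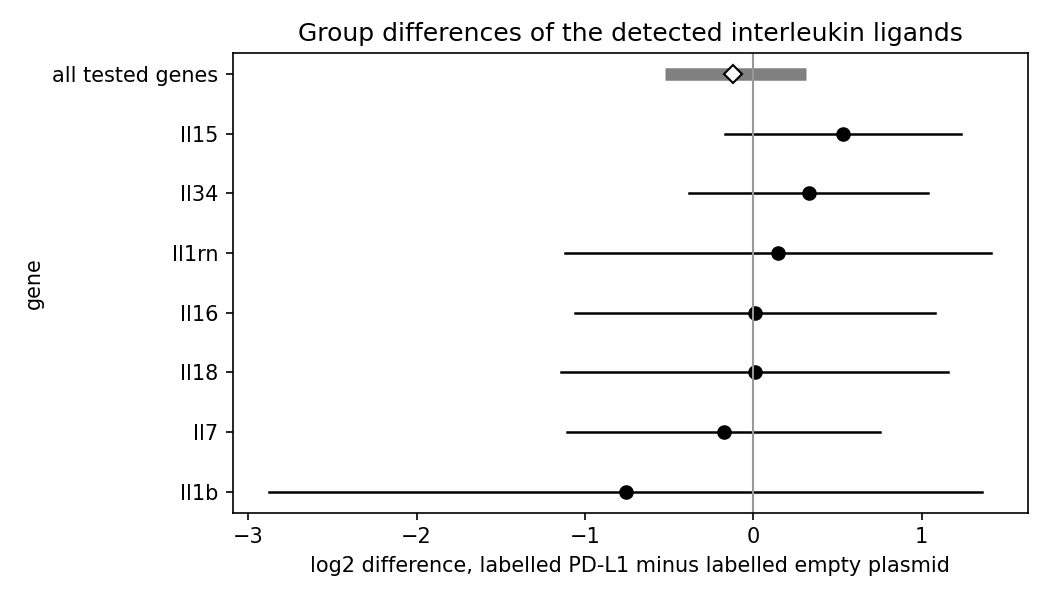
Log2 difference between the groups (x axis, labelled PD-L1 minus labelled empty plasmid) for the 7 tested interleukin ligands (y axis), with points as estimates and lines as 95% intervals from limma. The grey bar spans the middle of all 541 tested genes, from -0.53 to 0.31, with their median of -0.12 as a diamond, and every ligand's interval crosses 0.

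Il1b, the gene for IL-1 beta, the main secreted IL-1 of activated myeloid cells, varied more than any other ligand that was tested. Taking replicates 1 to 3 in order here and below, Il1b stood at 6.86, 6.38 and 9.31 (log2) in the samples labelled PD-L1 and at 9.45, 7.38 and 8.0 in those labelled empty plasmid. Replicate 3 labelled PD-L1 and replicate 1 labelled empty plasmid stood high, the other 2 samples labelled PD-L1 stood low, and the groups overlapped. From the lowest to the highest sample this is a range of 8.39-fold, and 87.1% of tested genes had a smaller range, where the median gene spanned 2.47-fold. The samples labelled PD-L1 averaged 7.52 ± 1.57 and the others 8.28 ± 1.07 (SD, n = 3 each). They differed by -0.76 ± 0.88 (SE; 95% interval -2.88 to 1.36; limma adjusted p = 0.692). Single samples set its size. Without replicate 3 labelled PD-L1 it was -1.66 (adjusted p = 0.294), without replicate 1 labelled empty plasmid -0.17 (adjusted p = 0.93), and without replicate 2 labelled PD-L1 -0.19 (adjusted p = 0.959). It was -0.43 without replicate 1 labelled PD-L1 and -1.21 without replicate 2 labelled empty plasmid.

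Il1rn, for the antagonist that keeps IL-1 off its receptor, was highest in the same 2 samples in which Il1b was highest. It stood at 6.42, 6.35 and 7.76 in the samples labelled PD-L1 and at 7.31, 6.76 and 6.01 in those labelled empty plasmid. Its difference was 0.15 ± 0.53 (SE, limma adjusted p = 0.892), and it turned to -0.31 without replicate 3 labelled PD-L1 and to -0.19 without replicate 3 labelled empty plasmid. The value of Il1b minus that of Il1rn within a sample does not move with the scaling between samples. It was 0.44, 0.03 and 1.55 in the samples labelled PD-L1, and 2.14, 0.61 and 1.99 in those labelled empty plasmid. The samples overlapped, with means of 0.67 ± 0.79 and 1.58 ± 0.84 (SD, n = 3 each). The difference between the groups was -0.91 (two-sided exact permutation p = 0.2, where 3 against 3 samples cannot give less than 0.1). It was -1.39 without replicate 2 labelled empty plasmid and -0.59 without replicate 2 labelled PD-L1.

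Il1a, for IL-1 alpha, which is active without caspase-1 and is released from damaged cells, had a mean of 4.20, under the limit. It stood at 3.51, 3.11 and 4.21 in the samples labelled PD-L1 and at 4.47, 5.20 and 4.71 in those labelled empty plasmid. All 3 samples labelled PD-L1 lay below all 3 others, and only 2 samples, both labelled empty plasmid, reached the limit. Il1a was above the highest negative probe of its own sample in 4 of 6. These were all 3 labelled empty plasmid and replicate 3 labelled PD-L1. In recovered counts these are 15, 10 and 22 against 37, 33 and 50, where the highest negative probe of each sample held between 17 and 25. With no background limit its difference was -1.18 (limma adjusted p = 0.284, unadjusted p = 0.0246). The 3 other genes of the panel whose values over the 6 samples were most like it were C8a (Pearson r = 0.98), F12 (r = 0.98) and Ambp (r = 0.98), genes of plasma proteins made by hepatocytes. They are the highest r over all endogenous genes outside the ligands, for a gene picked for separate groups. A high r over 6 samples was therefore likely in advance. The hepatocyte markers, C8a and Ambp among them, were all lower in the group labelled PD-L1. All 8 on the panel were tested and none was under the limit in every sample. Their summed log2 level ran from 10.14 to 13.51 there and from 12.76 to 16.25 in the other group. Here and below this is the log2 of the summed unlogged values, in which the most abundant marker weighs most. The part of the hepatocyte markers in the Il1a difference was not tested. In bulk tissue, fewer cells of a type and less RNA per cell cannot be told apart.

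The receptor of both agonists was read by its signalling chain Il1r1, its accessory chain Il1rap and the decoy Il1r2. Il1r1 stood at 8.80, 9.43 and 9.32 in the samples labelled PD-L1 and at 9.52, 10.04 and 10.32 in those labelled empty plasmid. The groups did not overlap, but the difference of -0.78 ± 0.31 (SE) did not pass the test (limma adjusted p = 0.291). Il1rap differed by 0.40 ± 0.32 and Il1r2 by 0.77 ± 0.56, with overlapping groups. Casp1, for the protease that cuts IL-1 beta and IL-18, differed by 0.24 ± 0.29, and Nlrp3, for an inflammasome sensor upstream of it, by 0.46 ± 0.34. Neither passed.

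**Figure D3:**
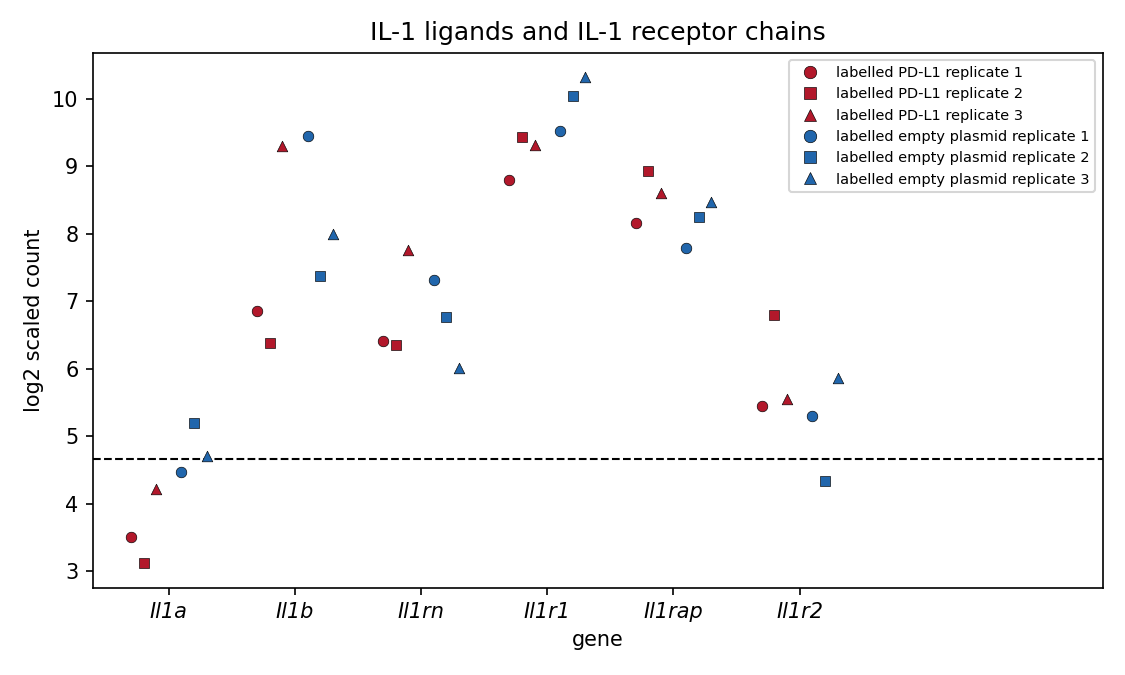
Log2 scaled counts (y axis) of the IL-1 ligands Il1a, Il1b and Il1rn and of the receptor chains Il1r1, Il1rap and Il1r2 (x axis) in each sample, with red for labelled PD-L1, blue for labelled empty plasmid and a dashed line at the background limit of 4.66. The groups are separate for Il1a, mostly under the line, and for Il1r1, and they overlap for the other 4 genes.

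Myeloid markers are given beside Il1b because neutrophils and macrophages are its usual source. Of 9 neutrophil markers on the panel 4 were tested, and Mpo, Elane, Camp, Ltf and Cxcr1 were under the limit in every sample. The summed log2 level of the 9 was 10.44, 11.74 and 11.35 in the samples labelled PD-L1 and 10.66, 10.41 and 10.44 in the others. Ncf4, the most abundant, weighs most in it. Of the 4 tested, 2 were higher and 2 lower in the group labelled PD-L1. The 2 lower were Cxcr2, which ran only from 4.76 to 4.96 over all samples, and Csf3r. Csf3r stood at 6.20, 5.98 and 6.08 in the samples labelled PD-L1 and at 7.20, 5.06 and 6.95 in the others. The mean log2 value of the 4 tested was 7.35, 8.03 and 7.89 in the samples labelled PD-L1 and 7.66, 6.9 and 7.45 in the others. Replicate 2 labelled PD-L1 held the highest neutrophil sum and the lowest Il1b, and replicate 3 labelled PD-L1 held the next highest neutrophil sum and the next to highest Il1b. Csf3r alone was highest in replicate 1 labelled empty plasmid, which also held the highest Il1b. The 14 macrophage and monocyte markers summed to a log2 level of 16.19, 17.50 and 17.19 in the samples labelled PD-L1 and 16.11, 15.69 and 15.85 in the others. The part of either cell type in Il1b was not tested.

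Il18, for the caspase-1-cut cytokine that drives interferon-gamma production, was spread evenly between the groups. Its values were 7.38, 8.18 and 7.00 in the samples labelled PD-L1 and 7.05, 8.32 and 7.17 in those labelled empty plasmid. In each group replicate 2 was the highest, and the groups overlapped. The difference was 0.01 ± 0.48 (SE, 95% interval from -1.14 to 1.16, limma adjusted p = 0.998). Of its receptor chains Il18r1 differed by -0.56 ± 0.69 and Il18rap by 0.48 ± 0.27. Il18rap was higher in all 3 samples labelled PD-L1 than in all others, without passing the test (adjusted p = 0.408).

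Il15, for the survival factor of natural killer cells and memory CD8 T cells, which myeloid cells present on its own receptor chain, was the only tested ligand whose groups did not overlap. Its values were 7.20, 7.51 and 7.57 in the samples labelled PD-L1 and 6.83, 6.66 and 7.19 in those labelled empty plasmid. The groups were separated by 0.0104 on the log2 scale. Among all tested genes 18.3% had groups that did not overlap, so 1 of 7 ligands is near that background. The difference was 0.53 ± 0.29 (SE, 95% interval from -0.17 to 1.23, limma adjusted p = 0.393). With the negative controls subtracted the groups overlapped and the difference was 0.58 (adjusted p = 0.412).

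The 3 other panel genes most like Il15 over the 6 samples were Cd200r1 (Pearson r = 0.94), an inhibitory receptor of myeloid cells, Fcgr3 (r = 0.94), a receptor for IgG, and Trem2 (r = 0.91), a lipid-sensing receptor of macrophages. As for Il1a, these were picked as the highest r, so a high r was likely in advance. Of the 14 macrophage and monocyte markers on the panel, all tested and none under the limit in every sample, 12 were higher in the group labelled PD-L1. Their summed log2 level, given above, was higher in all 3 samples of that group than in all others, with Lyz2, the most abundant, weighing most. The mean log2 value of the 14 was 10.52, 11.49 and 10.98 in that group and 10.13, 9.96 and 10.51 in the other. Of the 14, 2 had groups that did not overlap, beside 18.3% of all tested genes. The part of these markers in the Il15 difference was not tested. The receptor chains of IL-15 went the other way without passing. Il15ra differed by -0.45 ± 0.37 (SE), Il2rb by -1.03 ± 0.64 and Il2rg, the common gamma chain, by -0.41 ± 0.34. Of 11 natural killer markers 5 were tested, and Klrc2, Eomes and Klra1 were under the limit in every sample. The 11 summed to a log2 level of 8.22 to 9.86 in the group labelled PD-L1 and 8.54 to 9.93 in the other. Of the 5 tested, 1 was higher and 4 were lower in the group labelled PD-L1, with a median difference of -0.6 and 0 with separate groups. In limma 0 passed and 1, a lower one, had an unadjusted p under 0.05, beside 17.0% of all tested genes.

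Il7, for the stromal factor that keeps naive T cells alive, was the detected ligand nearest to background. It stood at 4.84, 4.42 and 5.58 in the samples labelled PD-L1 and at 5.19, 5.28 and 4.89 in those labelled empty plasmid, or 25 to 61 recovered counts. The sample below the limit was replicate 2 labelled PD-L1, and without it the difference of -0.18 ± 0.39 (SE, limma adjusted p = 0.845) turned to 0.09. Its receptor chain Il7r differed by -0.23 ± 0.55.

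**Figure D4:**
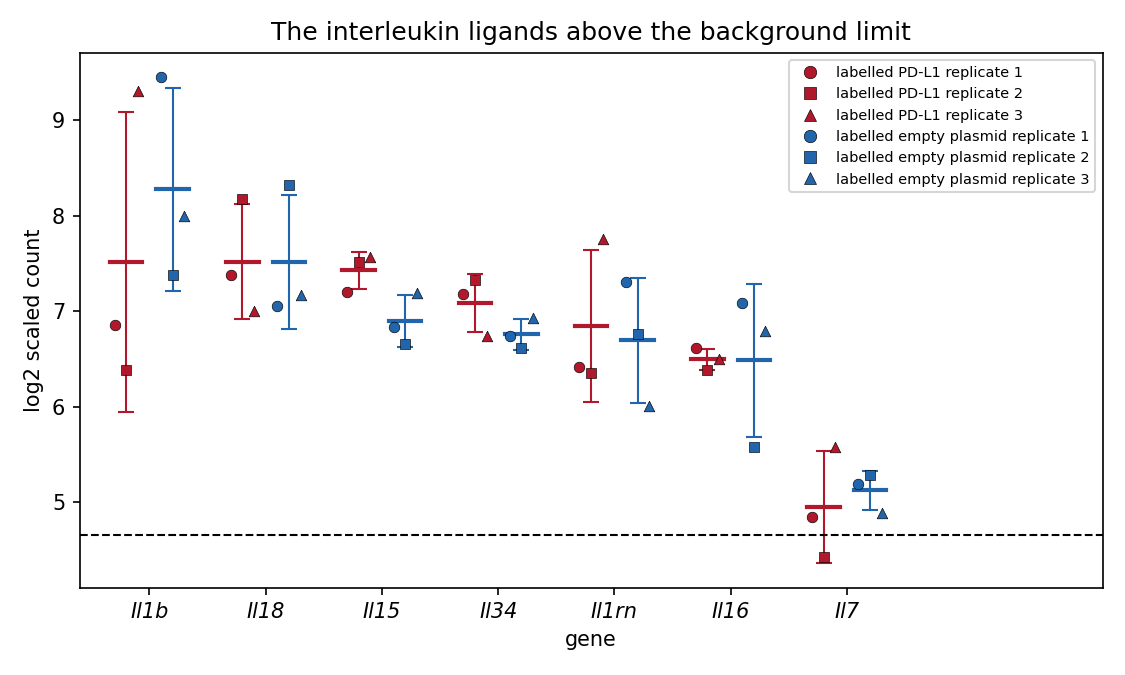
Log2 scaled counts (y axis) of the 7 interleukin ligands above the background limit (x axis, dashed line at 4.66) in each sample, with red for labelled PD-L1 and blue for labelled empty plasmid. Bars give the mean and whiskers the SD of 3 samples: Il1b has the widest spread within both groups, and Il15 alone has groups that do not overlap.

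Il34, for the CSF1R ligand that maintains microglia and skin macrophages, had the narrowest range of the 7 ligands, 1.65-fold from the lowest to the highest sample. Its values were 7.18, 7.33 and 6.74 in the samples labelled PD-L1 and 6.74, 6.61 and 6.93 in those labelled empty plasmid. The groups overlapped through replicate 3 of each, and the difference was 0.33 ± 0.30 (SE, limma adjusted p = 0.618). Its receptor gene Csf1r, a macrophage marker, differed by 0.14 ± 0.25. Without either replicate 3 labelled PD-L1 or replicate 3 labelled empty plasmid the Il34 groups no longer overlapped. With a sample left out the groups of any gene separate more readily, and the share over all tested genes was not computed.

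Il16, whose precursor is made by lymphocytes and whose released part attracts CD4+ cells, had an even level in one group and a wide one in the other. It stood at 6.61, 6.38 and 6.50 in the samples labelled PD-L1 and at 7.09, 5.58 and 6.79 in those labelled empty plasmid. The low sample was replicate 2 labelled empty plasmid, which also had the lowest total count. The difference of 0.01 ± 0.45 (SE, 95% interval from -1.06 to 1.08, limma adjusted p = 0.998) became -0.44 without that sample, and the groups then did not overlap. How many of all tested genes separate with that sample left out was not computed.

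Among the ligands under the limit, Il6, for the cytokine that induces acute-phase proteins in hepatocytes, came nearest to it. It stood at 4.45, 5.23 and 4.45 in the samples labelled PD-L1 and at 5.14, 3.62 and 4.24 in those labelled empty plasmid. It was above the limit in 1 sample of each group and above the highest negative probe of its own sample in 5 of 6, with 11 to 59 recovered counts. The groups overlapped, and with no limit the difference was 0.38 (limma adjusted p = 0.713).

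Of the subunits of IL-12, IL-23 and IL-27, the ligand genes Il12a, Il12b, Il23a and Il27 were not above the limit in any sample. Il12a and Il12b, the chains of IL-12, held 6 to 26 and 11 to 29 recovered counts, Il23a, the IL-23 chain that pairs with Il12b, 10 to 24, and Il27 10 to 16. Il23a stood at 4.12, 3.69 and 4.34 in the samples labelled PD-L1 and at 2.98, 3.75 and 2.42 in the others. Its groups overlapped on the log2 scale and did not overlap in recovered counts, which are not scaled for the depth of each sample. Ebi3, the partner chain of IL-27, was above the limit in all samples and differed by -0.42 ± 0.35 (SE, limma adjusted p = 0.585). Il11, a stromal cytokine of the IL-6 family, held 12 to 22 counts.

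The cytokines of T helper cells lay at background. Il2 held 7 to 19 recovered counts, Il4 5 to 11, Il5 6 to 13, Il9 5 to 13 and Il13 11 to 19. None of these counts was above 19, and the highest negative probe of a sample held 17 to 25, so a difference between groups was not detectable at this depth. Il3, a growth factor of basophils and mast cells, held 3 to 14 counts. Of 14 T cell markers on the panel 4 were tested, and Cd2 and Cd5 were among those under the limit in every sample. The 4 tested markers all had a lower mean in the group labelled PD-L1, with a median difference of -1.0. Of these 4, 2 had groups that did not overlap, beside 18.3% of all tested genes. In limma 0 passed and 0 had an unadjusted p under 0.05. The summed log2 level of the 14 was 7.83, 7.82 and 8.38 in the samples labelled PD-L1 and 9.62, 8.27 and 8.74 in the others, which overlapped. Of 5 mast cell and basophil markers 1 was tested, and Kit, Fcer1a, Ms4a2 and Cma1 were under the limit in every sample. Of 6 dendritic cell markers 1 was tested, and Xcr1 was under the limit in every sample.

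The other 3 ligands under the limit whose groups did not overlap were Il21, Il24 and Il25, all higher in the samples labelled PD-L1. Il21, a cytokine of follicular helper T cells, stood at 4.84, 3.69 and 4.40 in those samples and at 2.98, 2.77 and 3.08 in the others. Il24, an IL-10 family cytokine that acts on epithelium, stood at 2.93, 4.17 and 3.67 against 2.46, 2.51 and 2.42. Il25, an epithelial cytokine that drives type 2 responses, stood at 3.99, 3.59 and 4.56 against 3.36, 3.17 and 2.79. Of these 9 values in the samples labelled PD-L1, 1 reached the limit, Il21 in replicate 1. In recovered counts, which are not scaled for the depth of each sample, none of the 3 genes had separate groups. Il21 held 38, 15 and 25 against 13, 6 and 16, Il24 10, 21 and 15 against 9, 5 and 10, and Il25 21, 14 and 28 against 17, 8 and 13.

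With no background limit the differences were 1.36 for Il21, 1.13 for Il24 and 0.94 for Il25, with limma adjusted p of 0.266, 0.293 and 0.3. With Il1a this makes 4 of 22 ligands under the limit with separate groups, where 20.1% of all 209 genes under the limit had them. The 3 that were higher compare with 12.4% of those 209 genes. Low genes as a whole were higher in the group labelled PD-L1: 19 of 22 ligands and 137 of 209 genes, with median differences of 0.22 and 0.25. The samples labelled PD-L1 had been multiplied by factors of 0.748, 0.851 and 0.836 to give the deposited values, and those labelled empty plasmid by 0.595, 1.11 and 0.519. The part of these factors in the differences of low genes was not tested.

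The panel genes most like these low ligands over the 6 samples were Klra1 (r = 0.98, itself under the limit), Ppbp (r = 0.97) and Ccl11 (r = 0.96) for Il21. They were Bcl10 (r = 0.98), Ccr1 (r = 0.97) and Lyz2 (r = 0.97) for Il24. For Il25 they were Tnfrsf9 (r = 0.98), Klra5 (r = 0.96) and Klra7 (r = 0.93), the latter pair under the limit. These are the highest r over all endogenous genes outside the ligands, from 6 samples. High r were therefore likely in advance for these ligands, picked for separate groups and near the negative probes. Of their receptor chains, Il21r differed by -0.02 ± 0.37 (SE), Il22ra1, a chain of the IL-24 receptor, was under the limit, and Il17ra, a chain of the IL-25 receptor, differed by 0.07 ± 0.29. Il17rb, the other chain of the IL-25 receptor, stood at 2.93, 3.25 and 4.51 in the samples labelled PD-L1 and at 4.62, 6.45 and 6.25 in the others, without passing (limma adjusted p = 0.25). It reached the limit only in replicates 2 and 3 labelled empty plasmid, so it was tested only through the group where it was high.

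Other IL-17 and IL-10 family ligands stayed near the negative probes. Il17a, the signature cytokine of T helper 17 cells, stood at 4.05, 3.25 and 3.35 in the samples labelled PD-L1 and at 2.75, 3.34 and 1.46 in the others. Il17f, its close relative, stood at 4.12, 2.80 and 4.45 against 2.87, 2.98 and 1.71. The groups overlapped for both, with 5 to 22 recovered counts for Il17a and 6 to 26 for Il17f. Il17b held 18 to 24 counts, reached the limit in 1 sample and was above the highest negative probe of its own sample in 4 of 6. Il10, the suppressive cytokine of macrophages and regulatory T cells, held 6 to 26 counts and was highest in replicate 3 labelled PD-L1, at 4.45. Il19 held 3 to 20 counts and Il22, which acts on hepatocytes and epithelium, 12 to 33.

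More receptor chains than ligands stood above background. Of 32 interleukin receptor chains and related receptors on the panel 23 were tested, against 7 of 29 ligands. Of the 23 tested, 0 passed in limma, 9 had a higher and 14 a lower mean in the group labelled PD-L1, and the median difference was -0.11. Over all 541 tested genes 217 were higher and 324 lower, with a median of -0.12. At an unadjusted p under 0.05, 1 receptor chain was higher and 4 were lower, beside 39 higher and 53 lower (17.0% together) among all tested genes. The higher one was Il4ra, the receptor chain of IL-4 and IL-13, whose ligands Il4 and Il13 were at background. The lower ones included Il1r1, Il3ra, Il6st and Il17rb, the last tested only through the group where it was high. Groups did not overlap for 2 higher and 4 lower receptor chains, beside 46 higher and 53 lower (18.3% together) of all tested genes. Of 21 tested genes of interleukin signalling 0 passed, and 6 were higher and 15 lower, with a median difference of -0.38, beside the same 217 and 324 of all tested genes.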

How the data were processed

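The members and gene lists were chosen with earlier results of these data known. The authors deposited log2 values that carry a scaling per sample. Read from the values themselves, 2 to the power of each equals a whole count times a sample factor plus 0.158, and 100% of values came out whole within 0.02. Software and the basis of the factors are not given in the sources used here. Recovered counts served to show depth and for voom. The 2 deposited tables agreed exactly for 770 genes. Genes were tested with limma 3.58.1 in R 4.3.3 (lmFit, eBayes with trend, group as the only term, Benjamini-Hochberg over 541 genes, threshold 0.05). The fit was also run on simulated data with differences larger than those of the tested ligands and the same SD for every gene. That run does not measure the power of the test for these ligands. Single values had two-sided exact permutation tests. All ligands were named, as were receptor chains of ligands with separate groups and the 3 panel genes with the highest Pearson r to each of those; receptor genes of Il18, Il7 and Il34, signalling and processing genes were chosen later. Accessions of 28 of 29 members matched RefSeq (GRCm38.p6, for names and promoter windows, which 20 had). Alternatives covered scaling to the reference genes or sample medians, voom, the trend, the background limit, a constant of 20, subtraction of negative controls, the second table, each sample left out in turn and the replicate number as a block. Figures used matplotlib 3.10.9.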

Additional observations from a re-analysis of the deposited data

How the results depend on the processing

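No setting gave an interleukin ligand an adjusted p under 0.05, and the Il15, Il34 and Il1b differences kept their sign in all 16. The count of ligands with an unadjusted p under 0.05 was 4 with no background limit, all under the limit, and 0 otherwise. Of these 4 of 22, 3 were higher and 1 lower, beside 18 higher and 9 lower among all 209 genes under the limit. The count without overlap was 5 of 29 with no limit, where 18.3% of tested genes and 20.1% of genes under the limit had separate groups. It was 2 with samples centred on their medians (Il15 and Il34), 0 with negative controls subtracted, and from 1 to 4 when a sample was left out. It was 4 without replicate 3 labelled PD-L1 (Il15, Il1b, Il34 and Il7). Groups of any gene separate more readily with a sample left out. The share over all tested genes was not computed for settings that changed the values or samples. The median difference was 0.165 with centring, which shifts every gene by 0.16, and 0.191 with no limit, and ran from -0.163 to 0.312 with a sample left out. The replicate block left it at 0.009 and changed no call. Samples share only a replicate number: deviations from group means of same-numbered samples correlated across genes with r of 0.274, -0.203 and -0.126. Differences near 0 turned sign: Il16 was -0.099 by voom and -0.016 with a constant added, and Il18 -0.02 by voom. With a sample left out Il16 ran from -0.445 to 0.312, Il18 from -0.321 to 0.409, Il1rn from -0.309 to 0.456 and Il7 from -0.493 to 0.086. The cause was not tested. A limit of 3 SD left 6 ligands (Il7 dropped out). The difference of Il1b minus Il1rn ran from -1.39 to -0.59. With 3 samples a group, and a highest negative probe of 17 to 25 counts per sample, most of the 22 ligands under the limit could not be told from background.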
